A study of Mus musculus with 9 samples.

Results

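The mitochondrial SLC25 carriers are the proteins that move metabolites across the inner mitochondrial membrane, and their messenger RNAs were followed here in mouse CD8+ T cells. Members were taken as every annotated gene whose symbol was Slc25a followed by a number, which gave 47 of 55421 genes on 19 chromosomes. SLC25 proteins under other symbols, the uncoupling protein Ucp2 among them, fall outside this rule. In all 9 libraries the T cells were splenic and of the Pmel Ly5.1 genotype, a cross that carries a transgenic T-cell receptor and a congenic CD45 allele. MitoPositive cells had been co-cultured for 36 h with DM5, an immortalised mesenchymal stromal line from BL6 bone marrow whose mitochondria were labelled with the red fluorescent protein DsRed, and were then sorted as DsRed-positive. MitoNegative cells came out of the same kind of co-culture as DsRed-negative, and monoculture cells had been kept without stromal cells. Each group had 3 libraries lettered B, C and D, made from ribosomal RNA depleted total RNA. The titles carry a time of 0 h that the labels leave unexplained, and DM5 is 1 line. The labels do not state that the letters were separate mice or cultures, so the p-values speak for the spread among these libraries alone, and that spread may be technical. The series title concerns mitochondria that pass from stromal cells to T cells through nanotubes, and the comparisons ask whether the carrier messages differed between cells with and without stromal label, and between co-cultured cells and cells kept alone.

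As background, an SLC25 carrier is a small membrane protein built of repeats that each span the membrane in a pair of helices, and most members exchange one solute for another. The adenine nucleotide translocases and the phosphate carrier feed ATP synthase and export its product. Other members supply the matrix with citrate cycle intermediates, amino acids, nucleotides and cofactors, or serve the malate-aspartate shuttle and the import of acylcarnitines. All are encoded in the nucleus, and activated T cells are known to raise mitochondrial one-carbon and amino acid metabolism.

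Total counts per library ranged from 53546152 to 74722832, and no replicate pair matched within sampling noise, the chi-square over its degrees of freedom being 18.2 to 63.9 for a pair. Summed levels of 10 CD8+ T-cell markers were 8768 to 9177 CPM, the counts scaled to the size of each library, in MitoPositive, 8536 to 8859 CPM in MitoNegative and 9223 to 10585 CPM in monoculture, and none of the 10 was at 0 in any library. Summed levels of 21 stromal markers were 15.6 to 42.8 CPM in MitoPositive, 16.3 to 43.2 CPM in MitoNegative and 0.967 to 1.71 CPM in monoculture. In each monoculture library 12 to 15 of those 21 were at 0, among them Col1a2, Col3a1, Sparc, Pdgfra and Postn. Summed levels of 5 B-cell markers were 273 to 300.3 CPM in MitoPositive, 359 to 449 CPM in MitoNegative and 656 to 730.1 CPM in monoculture. Summed levels of 3 natural killer cell markers were 1.34 to 1.55 CPM in MitoPositive, 2.83 to 4.05 CPM in MitoNegative and 1.74 to 3.59 CPM in monoculture. Levels of 6 myeloid and 6 erythroid markers summed to at most 8.42 and 0.181 CPM in any library. The stromal and B-cell levels move with co-culture, as do the carrier differences against monoculture below, and their part in those results was not tested. Of the 10 CD8+ T-cell markers, 6 were called lower in MitoPositive and 7 in MitoNegative against monoculture, and 0 higher. Of all genes tested, 19.9% and 18.3% were called lower. The B-cell and natural killer sums were lower in every MitoPositive library than in every MitoNegative one, and their part in that comparison was not tested. In such bulk samples, fewer cells of a type and less RNA per cell cannot be told apart.

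Of the 47 carriers, 39 passed the filter on low counts and 38 of these had at least 10 counts in every library. Slc25a43 passed with 20, 13 and 8 counts in MitoPositive, 20, 13 and 22 counts in MitoNegative and 0, 11 and 10 counts in monoculture. The 8 that did not pass were Slc25a2, with 0 to 7 counts a library, Slc25a48, with 0 to 6, Slc25a18 and Slc25a41, with 0 to 3 each, Slc25a31, with 0 to 2, Slc25a34, with 0 to 1, and Slc25a21 and Slc25a54, which had 0 in each of the 9 libraries. Slc25a31 encodes the adenine nucleotide translocase known from testis, and Slc25a21 the oxodicarboxylate carrier. The 39 that passed do not stand for the whole family, since the low members could not be tested.

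Per kilobase of exon, the messages of the 39 tested carriers were dominated by the proteins of ATP exchange. Ucp2, left out by the symbol rule, is not in this order or its shares. Its CPM, given below, were above those of Slc25a4 in every library. Slc25a5, which encodes adenine nucleotide translocase ANT2, had the highest level, at 246 ± 14.4 CPM per kilobase (SD, n = 3 in this and the other groups) in MitoPositive, 237 ± 9.30 in MitoNegative and 239 ± 34.8 in monoculture. Slc25a4, for the paralogous translocase ANT1, was the second of the order in each group, at 106 ± 3.75 CPM per kilobase in MitoPositive, 99.1 ± 2.59 in MitoNegative and 95.9 ± 10.5 in monoculture. The phosphate carrier gene Slc25a3 came next, at 70.0 ± 3.46 CPM per kilobase in MitoPositive, 63.5 ± 3.12 in MitoNegative and 55.2 ± 5.02 in monoculture. These genes together held 60.1% of the summed level per kilobase of the 39 in MitoPositive, 59.1% in MitoNegative and 58.8% in monoculture. Slc25a11, for the oxoglutarate carrier, and Slc25a24, for a calcium-regulated ATP-Mg/phosphate carrier, held the next places of the order in all 3 groups. Slc25a11 stood at 39.1 ± 1.5 CPM per kilobase in MitoPositive, 36.0 ± 1.62 in MitoNegative and 31.5 ± 2.86 in monoculture. Slc25a24 stood at 20.9 ± 0.681 CPM per kilobase in MitoPositive, 17.8 ± 0.576 in MitoNegative and 22.4 ± 2.14 in monoculture. Further down, 19 neighbouring pairs in the MitoPositive order, 19 in MitoNegative and 23 in monoculture had replicates that overlapped, so the order there is loose. The median carrier was at 5.70 CPM per kilobase in MitoPositive, 5.58 in MitoNegative and 6.85 in monoculture. Slc25a43 was the lowest of the 39, at 0.116 ± 0.0463 CPM per kilobase in MitoPositive, 0.152 ± 0.0415 in MitoNegative and 0.0653 ± 0.0567 in monoculture. The plot of levels by library shows a spread of more than 3 orders of magnitude across the family and a much smaller one between groups.

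**Figure D1:**
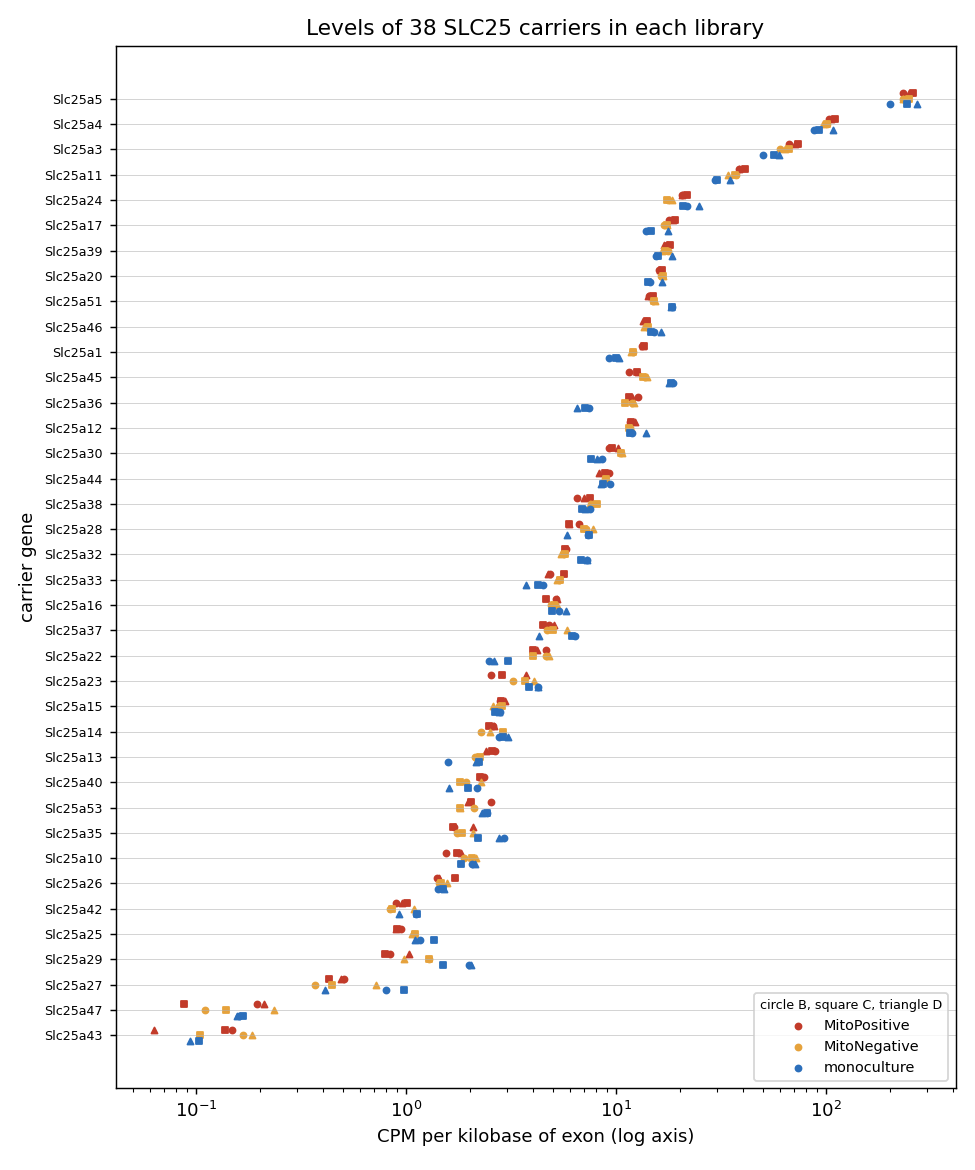
Levels of 38 of the 39 SLC25 carriers that passed the filter, in CPM per kilobase of exon on a log axis, with 1 row per gene ordered by level and 1 point per library, coloured by group and shaped by letter. Slc25a5, Slc25a4 and Slc25a3 stand above the rest in every library, and the monoculture library B of Slc25a43, at 0, is not drawn.

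Counted together, the 47 carriers took a mean of 0.222 ± 0.00436% (SD, n = 3 in this and the other groups) of the reads counted in MitoPositive libraries, 0.212 ± 0.00475% in MitoNegative and 0.203 ± 0.00612% in monoculture. MitoPositive B, at 0.217%, lay level with MitoNegative D, at 0.217%, so those groups touched, while the highest monoculture library was at 0.206%. After scaling of library sizes the same sum was 2196 ± 56.6 CPM in MitoPositive, 2123 ± 30.9 CPM in MitoNegative and 2053 ± 125 CPM in monoculture, and monoculture D, at 2187 CPM, lay within the MitoPositive range. Slc25a3, Slc25a4 and Slc25a5 made up 47.4 ± 1.12% of the carrier total in MitoPositive, 46.0 ± 1.01% in MitoNegative and 45.0 ± 2.67% in monoculture. Ucp2 is in none of these sums, and its levels, given below, were higher in monoculture than in co-culture.

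No carrier was called between MitoPositive and MitoNegative cells, where 26 of 15711 genes tested passed, which is 0.165%, with 0.0891% higher and 0.0764% lower. Of the 39 carriers 7 had an unadjusted p under 0.05 in edgeR's quasi-likelihood test, a larger share than the 10.5% of all genes tested. That difference in shares was not tested, and both DESeq2 and limma voom called 0 carriers. The log2 fold changes ran from -0.41 for Slc25a29 to 0.23 for Slc25a24, with a median of 0.01 over the carriers and -0.00 over all genes tested. For 35 of the 39 the 95% interval of the fold change lay within 1.5-fold either way, and the exceptions were Slc25a27, Slc25a29, Slc25a43 and Slc25a47. A missed call does not show that levels were equal. With the letter as a block, which the pairing of these groups by letter permits, 367 genes were called in place of 26 and still 0 carriers. In that edgeR fit 11 of the 39 carriers had an unadjusted p under 0.05, beside 2331 of 15711 genes. The smallest adjusted p of a carrier there was 0.1055, for Slc25a24. On leaving out any 1 of the 9 libraries the genes called numbered 1 to 120, 1 without MitoPositive C or without MitoNegative B or C and 120 without monoculture D, and the carriers called were 0 each time.

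Slc25a24 had the smallest p of the carriers between MitoPositive and MitoNegative. It measured 70.4, 74.4 and 70.4 CPM in MitoPositive libraries B, C and D, against 60.6, 59.6 and 63.4 CPM in MitoNegative. Every MitoPositive library stood above every MitoNegative one, at a fold of 1.17 with a 95% interval of 1.06 to 1.30 (edgeR, unadjusted p = 0.00625, adjusted p = 0.217). Slc25a1, for the citrate carrier, had 28.8, 29.4 and 28.9 CPM in MitoPositive against 25.9, 26.1 and 25.4 CPM in MitoNegative. Its libraries did not overlap either, at a log2 fold change of 0.17 with SE 0.0602 (edgeR, adjusted p = 0.317). Slc25a45 had 31.8, 34.7 and 35.2 CPM in MitoPositive against 37.6, 37.0 and 38.7 CPM in MitoNegative. Here each MitoPositive library was the lower, with a log2 fold change of -0.16 and SE 0.0564 (edgeR, adjusted p = 0.318). The other carriers with an unadjusted p under 0.05 were Slc25a10, Slc25a25, Slc25a28 and Slc25a29, with negative fold changes of -0.26, -0.24, -0.25 and -0.41 on the log2 scale and edgeR adjusted p of 0.462, 0.441, 0.372 and 0.459. Over the 39 tested carriers 6 had every MitoPositive library above every MitoNegative one and 6 the reverse, while 10.5% and 9.55% of all genes tested did so, 20% together. The carrier shares were above those of all genes, a difference that was not tested. As no carrier was called, no member is shown to differ with the DsRed label in these libraries. The smallest adjusted p of any carrier was 0.0685 to 0.659 over the alternative settings.

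**Figure D2:**
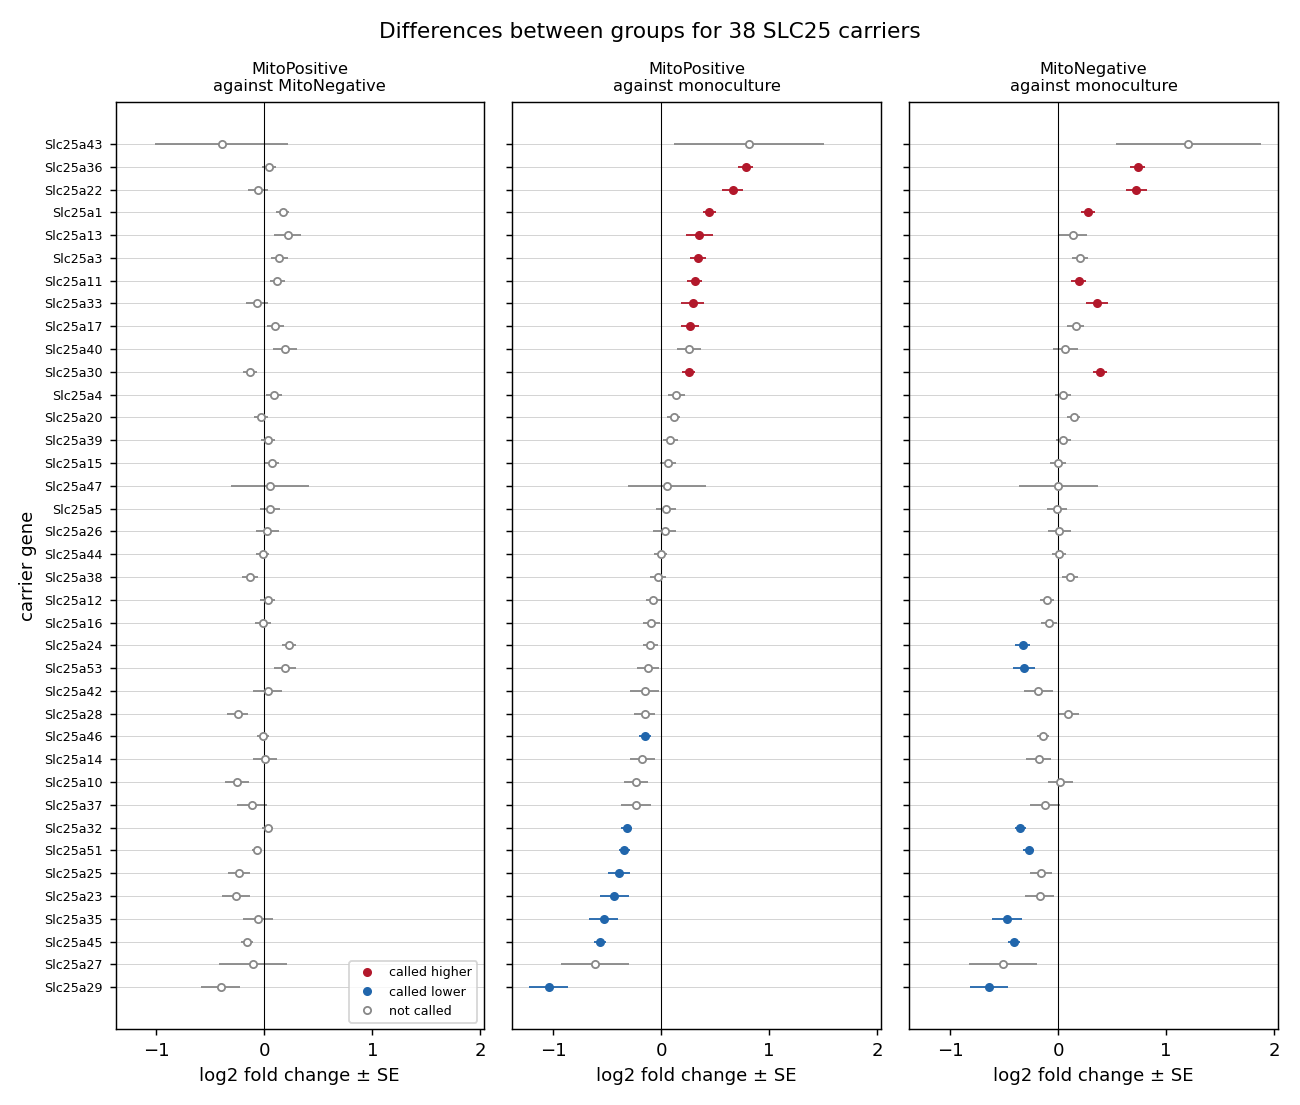
Log2 fold changes of 38 of the 39 tested carriers in the 3 comparisons, 1 row per gene, with bars for the standard error of the edgeR fit and filled points for calls at an adjusted p under 0.05. The left panel, MitoPositive against MitoNegative, holds 0 filled points, the middle panel 17 and the right panel 13.

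Against monoculture the family split, with some carriers higher and others lower after co-culture. In MitoPositive cells 9 carriers rose and 8 fell, 17 of 39 or 43.6%, where 42.2% of all genes tested were called, 22.3% higher and 19.9% lower. In MitoNegative cells 6 rose and 7 fell, 13 of 39 or 33.3%, where 38.9% of all genes tested were called, 20.6% higher and 18.3% lower. These shares are near those of all genes, so the number of changes was not a feature of the carriers. The median log2 fold change of the 39 was -0.01 in MitoPositive and 0.01 in MitoNegative, beside 0.00 and 0.01 over all genes tested. Of the carriers 11 had every MitoPositive library above every monoculture one and 10 had the reverse, which held for 27.3% and 24.3% of all genes tested, 51.6% together. Between MitoNegative and monoculture 9 were apart in each direction, beside 25.9% higher and 22.9% lower among all genes tested, 48.7% together. Both comparisons use the same monoculture libraries, so their values stand side by side below and a match between them is not independent. With total counts as the scale, the split of calls was 12 higher and 7 lower in MitoPositive, which is 63.2% higher in place of 52.9%, and 9 higher and 6 lower in MitoNegative, 60% in place of 46.2%.

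By the substrates that the proteins carry, the carboxylate and uncoupling-protein-like group had 3 of 6 tested members higher and 0 lower in MitoPositive, and the same counts in MitoNegative. The symbol rule leaves the uncoupling protein Ucp2 out of these counts, and Ucp2 was called lower in both, as given below. The nucleotide and cofactor group had 3 of 12 higher and 4 lower in MitoPositive, and 2 higher and 3 lower in MitoNegative. The amino acid and acylcarnitine group had 2 of 8 higher and 1 lower in MitoPositive, and 1 higher and 1 lower in MitoNegative. Of the phosphate and ADP/ATP carriers 1 of 3 was higher in MitoPositive and 0 were called in MitoNegative. None of the 4 iron and glutathione carriers was called in either with all 9 libraries, with 1 in MitoPositive and 0 in MitoNegative at an unadjusted p under 0.05 in edgeR, where 49.9% and 47% of all genes tested were, and 0 called by DESeq2 or by limma voom. The other or little characterised members had 0 of 6 higher and 3 lower in each. Groups of this size say little by their counts, and no group was tested as a set.

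**Figure D3:**
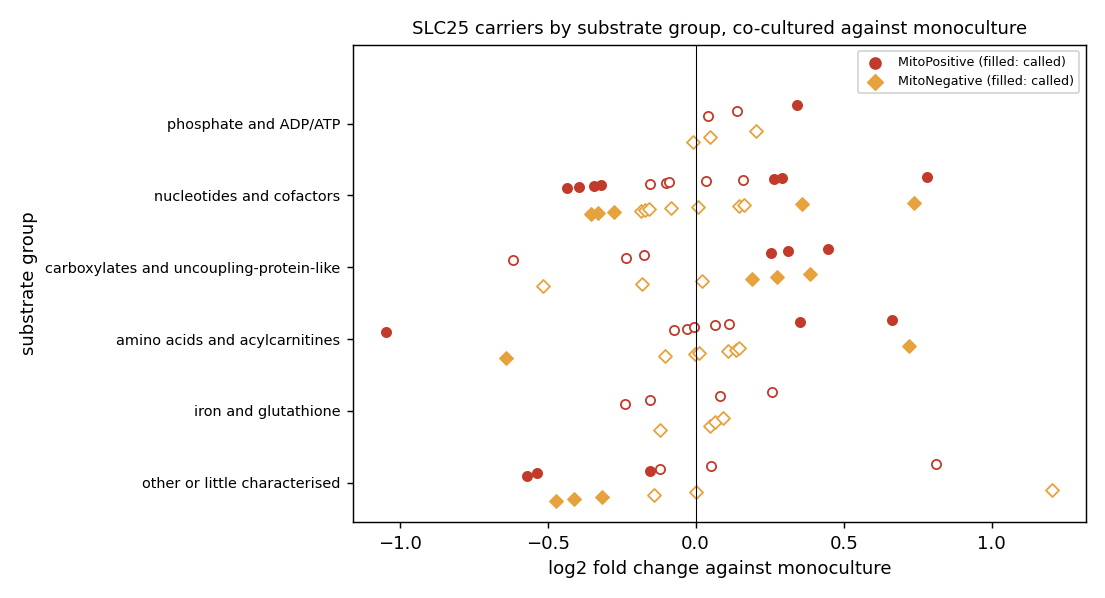
Log2 fold changes against monoculture of the 39 tested carriers by substrate group, circles for MitoPositive and diamonds for MitoNegative, filled where called at an adjusted p under 0.05 in edgeR. The 3 filled circles of the carboxylate group lie right of 0, the iron and glutathione group has none, and Slc25a29 is the circle farthest left. Ucp2, outside the symbol rule and called lower in both groups, is not drawn.

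The stretches upstream of the start site are shown for the carriers that rose in MitoPositive against monoculture and hold the palindromic E-box CACGTG, with Slc25a29, whose fall was the largest, as a contrast without one. They are RefSeq promoter windows on GRCm38.p6, written 5′ to 3′ on the strand of the gene, and the capitals mark the E-box. Slc25a36 is shown at chr9:97111158-97111291, the 134 bases of its window outside the deposited gene span. The rest are the 250 bases before the RefSeq start, at chr16:17928220-17928469 for Slc25a1, chr6:6217174-6217423 for Slc25a13, chr4:149774268-149774517 for Slc25a33 and chr12:108835877-108836126 for Slc25a29, and all 5 are on the minus strand.
Slc25a36: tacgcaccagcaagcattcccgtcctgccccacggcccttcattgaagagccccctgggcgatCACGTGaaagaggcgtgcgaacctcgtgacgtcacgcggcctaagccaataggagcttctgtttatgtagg
Slc25a1: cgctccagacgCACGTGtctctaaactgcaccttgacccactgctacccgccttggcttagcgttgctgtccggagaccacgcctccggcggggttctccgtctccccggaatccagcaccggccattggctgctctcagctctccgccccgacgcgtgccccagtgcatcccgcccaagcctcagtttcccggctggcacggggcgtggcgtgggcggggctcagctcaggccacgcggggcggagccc
Slc25a13: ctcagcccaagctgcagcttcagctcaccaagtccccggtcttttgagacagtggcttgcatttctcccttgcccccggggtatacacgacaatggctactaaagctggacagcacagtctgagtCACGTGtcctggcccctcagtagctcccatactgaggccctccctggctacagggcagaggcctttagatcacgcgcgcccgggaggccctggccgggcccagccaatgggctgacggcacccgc
Slc25a33: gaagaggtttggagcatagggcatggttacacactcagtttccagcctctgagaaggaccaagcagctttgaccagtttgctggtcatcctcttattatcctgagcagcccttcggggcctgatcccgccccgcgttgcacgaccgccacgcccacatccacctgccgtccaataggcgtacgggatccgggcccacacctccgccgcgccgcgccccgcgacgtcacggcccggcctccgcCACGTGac
Slc25a29: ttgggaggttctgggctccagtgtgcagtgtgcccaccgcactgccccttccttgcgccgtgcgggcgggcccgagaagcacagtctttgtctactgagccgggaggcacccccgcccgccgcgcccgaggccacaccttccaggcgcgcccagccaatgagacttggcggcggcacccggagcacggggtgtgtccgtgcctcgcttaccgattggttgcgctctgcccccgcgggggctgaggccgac
Counted to the RefSeq start, the E-box begins 187 bases before Slc25a36, 239 before Slc25a1, 125 before Slc25a13 and 8 before Slc25a33. For Slc25a36 the last 116 bases before that start lie inside the deposited gene span and are not printed. The deposited gene span of Slc25a33 also begins farther upstream than its RefSeq start. The last 10 bases of its stretch, its E-box among them, therefore lie inside the gene as it was counted. The last 7 bases of the Slc25a29 stretch lie inside its gene likewise. The first bases of that stretch lie inside the deposited span of Slc25a47, which begins at 108836046 on the plus strand. Windows of 250 bases before and 50 after the start were found for 36 of the 47 carriers, 46 windows in all, since a gene can have several starts. The E-box CACGTG, which reads alike on both strands, was in 8 of the 46 or 17.4%, and in 7.15% of the 32851 windows of all genes. Overlapping windows of Slc25a14 hold the same site, so the 8 windows stand for 7 of the 36 carriers. By call in MitoPositive against monoculture, it was in 4 of 9 higher carriers, 0 of the 4 lower carriers with a window, 2 of 17 that were not called, Slc25a14 and Slc25a15, and 1 of 6 that were not tested, Slc25a31. The higher carriers without it were Slc25a3, Slc25a11, Slc25a17, Slc25a22 and Slc25a30. Of the lower carriers Slc25a32, Slc25a35, Slc25a46 and Slc25a51 had no window. The share per gene among all genes called higher was not computed. Among the higher carriers with the E-box, the calls of Slc25a13 and Slc25a33 were lost on several omissions of a library, given below. The NRF1 motif, GCGC then any base then TGCGC, on either strand, was in 2 carrier windows, those of Slc25a3 and Slc25a31, or 4.35%, and in 4.6% of all windows. The ATF4 element TGATGNAA, on either strand, was in 0 carrier windows and 3.97% of all. In carrier windows 0 matches of one motif overlapped another. These are matches of letters and were not tested for binding or against the expression values.

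Among the phosphate and ADP/ATP carriers, Slc25a3 was the one called with all 9 libraries. Its protein brings phosphate into the matrix for ATP synthesis, and the gene (ENSMUSG00000061904.12) lies at chromosome 10, 91116574 to 91124059, minus strand. It had 367, 405 and 392 CPM in MitoPositive, 335, 369 and 354 CPM in MitoNegative, and 276, 313 and 330 CPM in monoculture. All co-cultured libraries were above all monoculture ones, and in each group library B was the lowest. Slc25a3 rose 1.27-fold in MitoPositive against monoculture, a log2 fold change of 0.34 with SE 0.0763 (edgeR, adjusted p = 0.00359). The MitoNegative difference was 0.20 on the log2 scale, with an adjusted p of 0.0542 in edgeR and 0.0165 with the letter as a block. It was also called there without MitoNegative B or monoculture D, with the DESeq2 test, with total counts as the scale, and with no filter or the stricter one. Neither translocase gene was called with all 9 libraries at the scaling used. Slc25a4 had 241, 258 and 247 CPM in MitoPositive, 236, 238 and 226 CPM in MitoNegative and 206, 217 and 254 CPM in monoculture. Slc25a5 had 380, 428 and 407 CPM in MitoPositive, 380, 408 and 383 CPM in MitoNegative and 332, 400 and 446 CPM in monoculture. Monoculture D was above the co-cultured libraries for Slc25a5 and below only MitoPositive C for Slc25a4, so the groups overlapped for both. For Slc25a4 the fold in MitoPositive against monoculture had a 95% interval of 0.984 to 1.23 (edgeR, adjusted p = 0.155), and for Slc25a5 of 0.892 to 1.19 (edgeR, adjusted p = 0.745). Without monoculture D the log2 fold change of Slc25a4 in MitoPositive was 0.24 (edgeR, adjusted p = 0.00564), against 0.14 with it, and with total counts as the scale it was 0.18 (edgeR, adjusted p = 0.0285). In MitoNegative the log2 fold changes against monoculture were 0.05 for Slc25a4 and -0.01 for Slc25a5, with edgeR adjusted p of 0.658 and 0.949. Reads of the pseudogene Slc25a5-ps were 0 to 3 counts a library.

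The largest rise of the family that passed the test was in Slc25a36, which encodes a pyrimidine nucleotide carrier. The gene (ENSMUSG00000032449.13) lies at chromosome 9, 97074961 to 97111157, minus strand, downstream of the E-box stretch printed above. It had 122, 110 and 114 CPM in MitoPositive, 114, 105 and 116 CPM in MitoNegative and 71.3, 67.8 and 62.1 CPM in monoculture. Both co-cultured groups lay far above monoculture and overlapped one another. Slc25a36 rose 1.72-fold in MitoPositive, with a 95% interval of 1.55 to 1.91 (edgeR, adjusted p = 4.71e-06), and 1.67-fold in MitoNegative, with an interval of 1.5 to 1.85 (edgeR, adjusted p = 1.05e-05). Between MitoPositive and MitoNegative its log2 fold change was 0.04 (edgeR, adjusted p = 0.889). Per kilobase it was the 13th of the 39 in MitoPositive and in MitoNegative, and the 19th in monoculture.

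Slc25a33, for the related pyrimidine carrier, was higher by less. It had 9.12, 10.6 and 8.91 CPM in MitoPositive, 10.0, 10.2 and 9.81 CPM in MitoNegative and 8.42, 7.95 and 7.02 CPM in monoculture, with no overlap of either co-cultured group with monoculture. The rise was 1.22-fold in MitoPositive (edgeR, adjusted p = 0.0424) and 1.28-fold in MitoNegative (edgeR, adjusted p = 0.0171). The MitoPositive call was lost without any of MitoNegative B, C or D, MitoPositive B or C, or monoculture C or D, where the adjusted p was 0.0513 to 0.183, with the compared groups alone, at 0.0715, or with no filter, at 0.0571, and the MitoNegative call without MitoNegative C, at 0.0546. Exons of Slc25a33 overlap Gm13068 on the opposite strand over 14.9% of their length, and reads of the pair cannot be told apart without the strand of counting.

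Slc25a17, whose product carries CoA, FAD and NAD in the membrane of peroxisomes, rose 1.2-fold in MitoPositive (edgeR, adjusted p = 0.019). It had 50.9, 54.4 and 52.7 CPM in MitoPositive, 47.8, 49.6 and 49.7 CPM in MitoNegative and 39.5, 41.6 and 50.3 CPM in monoculture. Monoculture D lay close under the MitoPositive libraries and above those of MitoNegative. Leaving out MitoPositive C or monoculture B or C ended the call, at an adjusted p of 0.0660, 0.0786 and 0.0731. In MitoNegative the log2 fold change was 0.16 (edgeR, adjusted p = 0.132). Slc25a17 was called there without monoculture D, at 0.28 (edgeR, adjusted p = 0.00244), and with total counts as the scale, at 0.19 (edgeR, adjusted p = 0.0489).

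The cofactor carriers that fell were Slc25a51 and Slc25a32, in both co-cultured groups. Slc25a51, for the mitochondrial NAD carrier (ENSMUSG00000045973.18; chromosome 4, 45395923 to 45408766, minus strand), had 78.7, 82.2 and 78.1 CPM in MitoPositive, 82.7, 83.2 and 84.5 CPM in MitoNegative and 102, 101 and 100.1 CPM in monoculture. The 3 groups did not overlap, and the monoculture libraries were nearly level. The level was 1.27-fold lower in MitoPositive (log2 fold change -0.34, SE 0.0484; edgeR, adjusted p = 0.000167) and 1.21-fold lower in MitoNegative (log2 fold change -0.27; edgeR, adjusted p = 0.00094). Between MitoPositive and MitoNegative it differed by -0.07 on the log2 scale (edgeR, adjusted p = 0.689). Slc25a32, for a carrier linked to folate and FAD, had 34.9, 34.8 and 34.3 CPM in MitoPositive, 34.1, 34.6 and 33.1 CPM in MitoNegative and 44.2, 41.4 and 44.3 CPM in monoculture. Its monoculture libraries stood clear above the rest, and it was 1.25-fold lower in MitoPositive (edgeR, adjusted p = 0.000464) and 1.28-fold lower in MitoNegative (edgeR, adjusted p = 0.000305). Each of these calls held in 17 of 17 alternative settings.

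The calcium-regulated ATP-Mg/phosphate carriers Slc25a23, Slc25a24 and Slc25a25 exchange adenine nucleotides for phosphate, and each had lower values in at least 1 co-cultured group. Slc25a23 had 13.4, 15.1 and 19.7 CPM in MitoPositive, 17.0, 19.4 and 21.4 CPM in MitoNegative and 22.4, 20.4 and 22.4 CPM in monoculture. MitoPositive D came near monoculture, and MitoNegative overlapped it. Slc25a23 was 1.35-fold lower in MitoPositive (edgeR, adjusted p = 0.0202), a call lost without MitoPositive B or C or monoculture B or D, at an adjusted p of 0.0590 to 0.0734. Slc25a25 had 7.45, 7.11 and 7.04 CPM in MitoPositive, 8.52, 8.62 and 8.34 CPM in MitoNegative and 9.11, 10.7 and 8.64 CPM in monoculture, a step between each group and the next with no overlap. It was 1.31-fold lower in MitoPositive (edgeR, adjusted p = 0.00815), and the MitoNegative log2 fold change was -0.16 (edgeR, adjusted p = 0.247). Slc25a24 had 60.6, 59.6 and 63.4 CPM in MitoNegative against 74.3, 71.3 and 85.2 CPM in monoculture. Its MitoNegative libraries were all below monoculture, while those of MitoPositive, given above, overlapped it. It was 1.26-fold lower in MitoNegative (edgeR, adjusted p = 0.0027) and had a log2 fold change of -0.10 in MitoPositive (edgeR, adjusted p = 0.26). Exons of Slc25a23 overlap Gm17168 and those of Slc25a25 overlap Naif1, both on the opposite strand, over 3.17% and 4.82% of their length.

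Slc25a16, Slc25a26 for S-adenosylmethionine and Slc25a42 for CoA were not called against monoculture. Their log2 fold changes ran from -0.15 to 0.03 in MitoPositive and from -0.18 to 0.01 in MitoNegative.

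In the carboxylate group, Slc25a1 rose in both co-cultured groups. Its product exports citrate, a source of cytosolic acetyl-CoA, and the gene (ENSMUSG00000003528.15) lies at chromosome 16, 17925223 to 17928219, minus strand. It had 28.8, 29.4 and 28.9 CPM in MitoPositive, 25.9, 26.1 and 25.4 CPM in MitoNegative and 20, 21.5 and 22.4 CPM in monoculture. MitoPositive was highest, MitoNegative between and monoculture lowest, with no overlap. Slc25a1 rose 1.36-fold in MitoPositive, with a 95% interval of 1.24 to 1.49 (edgeR, adjusted p = 0.000124), and 1.21-fold in MitoNegative, with an interval of 1.10 to 1.33 (edgeR, adjusted p = 0.00369). Both calls held in 17 of 17 alternative settings.

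Slc25a11, for the oxoglutarate carrier of the malate-aspartate shuttle, had 81.3, 86.6 and 80.9 CPM in MitoPositive, 78.9, 77.6 and 72.4 CPM in MitoNegative and 62.8, 63.9 and 73.8 CPM in monoculture. MitoPositive lay above monoculture throughout, and MitoNegative overlapped it through 1 library on each side. The gene rose 1.24-fold in MitoPositive (edgeR, adjusted p = 0.00359) and 1.14-fold in MitoNegative (edgeR, adjusted p = 0.0476). The MitoNegative call did not hold without any of MitoPositive B, C or D, MitoNegative B or C, or monoculture B or C, with adjusted p of 0.0590 to 0.162, and it was lost with DESeq2 size factors, at 0.0544, and with the compared groups alone, at 0.0704, so that it held in 8 of 17 alternative settings. Its exons overlap Rnf167 on the opposite strand over 8.91% of their length.

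Slc25a30, for an uncoupling-protein-like carrier, had 42.1, 43.3 and 46.7 CPM in MitoPositive, 48.3, 48.1 and 48.4 CPM in MitoNegative and 39.2, 34.7 and 36.8 CPM in monoculture. Here MitoNegative was the highest group and none overlapped. The rise was 1.19-fold in MitoPositive (edgeR, adjusted p = 0.00565) and 1.31-fold in MitoNegative (edgeR, adjusted p = 0.000466), and the difference between MitoPositive and MitoNegative was -0.13 on the log2 scale (edgeR, adjusted p = 0.479). Slc25a10 for dicarboxylates, and Slc25a14 and Slc25a27 of the uncoupling-protein-like branch, were not called, with log2 fold changes in MitoPositive of -0.23, -0.18 and -0.62. Without monoculture D, Slc25a27 was called lower in both groups, at -0.89 in MitoPositive (edgeR, adjusted p = 0.0181) and -0.79 in MitoNegative (edgeR, adjusted p = 0.0337).

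Glutamate and basic amino acid carriers showed the widest differences of the amino acid group. Slc25a22, for a mitochondrial glutamate carrier (ENSMUSG00000019082.18; chromosome 7, 141429744 to 141437892, minus strand), had 27.8, 24.1 and 25.2 CPM in MitoPositive, 27.8, 23.9 and 28.7 CPM in MitoNegative and 14.8, 18.3 and 15.7 CPM in monoculture. The co-cultured groups overlapped one another and stood apart from monoculture. Slc25a22 rose 1.58-fold in MitoPositive, with a 95% interval of 1.36 to 1.84 (edgeR, adjusted p = 0.000231), and 1.65-fold in MitoNegative, with an interval of 1.42 to 1.91 (edgeR, adjusted p = 0.000162). Both calls held in 17 of 17 alternative settings.

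Slc25a29, for a carrier of basic amino acids (ENSMUSG00000021265.3; chromosome 12, 108825873 to 108835883, minus strand), fell the most among the called carriers. It had 2.19, 2.07 and 2.68 CPM in MitoPositive, 3.35, 3.32 and 2.53 CPM in MitoNegative and 5.18, 3.87 and 5.28 CPM in monoculture. Monoculture C was the lowest of its group yet above all co-cultured libraries, and MitoNegative D lay within the MitoPositive range. The level was 2.06-fold lower in MitoPositive, with a fold change interval of 0.370 to 0.636 (edgeR, adjusted p = 0.000648), and 1.56-fold lower in MitoNegative, with an interval of 0.491 to 0.839 (edgeR, adjusted p = 0.0133). Without MitoNegative D the MitoNegative adjusted p was 0.0540. The deposited spans of Slc25a29, on the minus strand, and Slc25a47, on the plus strand, lie 162 bases apart. The RefSeq promoter window of Slc25a47 lies farther off, at chr12:108850879-108851178. Slc25a47, at 0.261 to 0.697 CPM, had a log2 fold change in MitoPositive against monoculture of 0.05 with SE 0.364 (edgeR, adjusted p = 0.921).

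The aspartate-glutamate carriers of the malate-aspartate shuttle did not share a pattern. Slc25a13, for citrin, had 10.0, 9.73 and 9.09 CPM in MitoPositive, 8.02, 8.55 and 8.27 CPM in MitoNegative and 6.0, 8.45 and 8.15 CPM in monoculture. Monoculture B was the low library. Slc25a13 rose 1.28-fold in MitoPositive (edgeR, adjusted p = 0.0415), a call lost without any 1 of MitoPositive B, C and D, MitoNegative C and D, or monoculture B, at an adjusted p of 0.0512 to 0.126, or with the compared groups alone, at 0.0631. Slc25a12, for aralar, had 85.0, 86.0 and 90.5 CPM in MitoPositive, 85.6, 84.3 and 86.1 CPM in MitoNegative and 87.5, 85.5 and 102 CPM in monoculture, and the groups overlapped. Its fold in MitoPositive against monoculture had a 95% interval of 0.857 to 1.05 (edgeR, adjusted p = 0.419), and the log2 fold change in MitoNegative was -0.10 (edgeR, adjusted p = 0.255).

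Slc25a20, for the carnitine-acylcarnitine carrier that brings fatty acids in for oxidation, had 77.6, 80.0 and 78.2 CPM in MitoPositive, 79.4, 81.1 and 80.4 CPM in MitoNegative and 70.3, 68.1 and 79.5 CPM in monoculture. Monoculture D reached the co-cultured levels. The log2 fold change was 0.11 in MitoPositive (edgeR, adjusted p = 0.16) and 0.14 in MitoNegative (edgeR, adjusted p = 0.0829). Without monoculture D, Slc25a20 was called higher in both, at 0.19 in MitoPositive (edgeR, adjusted p = 0.00882) and 0.22 in MitoNegative (edgeR, adjusted p = 0.00479). It was called in both with total counts as the scale too, and in MitoNegative with the stricter filter. Slc25a15 for ornithine, Slc25a38 for glycine and Slc25a44 for branched-chain amino acids were not called, and their log2 fold changes lay between -0.03 and 0.11 in both co-cultured groups.

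Iron and glutathione carriers were not called in any comparison with all 9 libraries, and each of the 4 was called in MitoPositive against monoculture when a certain monoculture library was left out. Slc25a37, for mitoferrin 1, had 28.6, 26.9 and 30.4 CPM in MitoPositive, 28, 30.2 and 34.9 CPM in MitoNegative and 38.3, 37.2 and 25.8 CPM in monoculture. Monoculture D was the lowest of the 9 libraries and the other monoculture libraries the highest, so the spread within that group was wider than the difference between groups. Its fold in MitoPositive against monoculture had a 95% interval of 0.684 to 1.05 (edgeR, adjusted p = 0.2). Without monoculture D, Slc25a37 was called lower in both co-cultured groups, at a log2 fold change of -0.39 in MitoPositive (edgeR, adjusted p = 0.00594) and -0.27 in MitoNegative (edgeR, adjusted p = 0.0356). Slc25a28, for mitoferrin 2, had 24.8, 22.2 and 22.2 CPM in MitoPositive, 26.9, 26.2 and 29.1 CPM in MitoNegative and 27.5, 27.9 and 21.7 CPM in monoculture. Monoculture D was again the lowest, and without it Slc25a28 was called lower in MitoPositive, at -0.25 on the log2 scale (edgeR, adjusted p = 0.0189). The glutathione carrier genes Slc25a39 and Slc25a40 had log2 fold changes of 0.08 and 0.26 in MitoPositive against monoculture (edgeR, adjusted p = 0.367 and 0.0919). Slc25a39 was called higher there without monoculture D, at 0.18 (edgeR, adjusted p = 0.0260), and Slc25a40 without monoculture B, at 0.36 (edgeR, adjusted p = 0.0323).

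Among the other members, Slc25a45 had the clearest fall. The gene (ENSMUSG00000024818.15; chromosome 19, 5877808 to 5885878, plus strand) had 31.8, 34.7 and 35.2 CPM in MitoPositive, 37.6, 37.0 and 38.7 CPM in MitoNegative and 51.3, 50.4 and 49.0 CPM in monoculture. MitoPositive was lowest and monoculture highest, and the 3 groups did not overlap. It was 1.48-fold lower in MitoPositive, with a fold change interval of 0.619 to 0.734 (edgeR, adjusted p = 1.21e-05), and 1.33-fold lower in MitoNegative, with an interval of 0.691 to 0.819 (edgeR, adjusted p = 0.00017). Both calls held in 17 of 17 alternative settings.

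Slc25a35 had 6.19, 6.11 and 7.63 CPM in MitoPositive, 6.43, 6.73 and 7.66 CPM in MitoNegative and 10.8, 8.03 and 10.1 CPM in monoculture, with all co-cultured libraries below monoculture. It was 1.45-fold lower in MitoPositive (edgeR, adjusted p = 0.0082) and 1.39-fold lower in MitoNegative (edgeR, adjusted p = 0.0173). The MitoNegative call was lost without MitoNegative B or C or monoculture B or D, at an adjusted p of 0.0517 to 0.0719. Exons of Slc25a35 overlap Rangrf on the opposite strand over 31.3% of their length, so this difference cannot be placed on either gene of the pair without the strand of counting.

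Slc25a46, whose product sits in the outer membrane and acts in mitochondrial dynamics, had 75.1, 76.1 and 72.9 CPM in MitoPositive, 75.9, 76.7 and 73.8 CPM in MitoNegative and 81.7, 79.0 and 88.7 CPM in monoculture. All co-cultured libraries were below monoculture by a small step. It was 1.11-fold lower in MitoPositive (edgeR, adjusted p = 0.0447), a call that ended in 12 of 17 alternative settings, leaving out any library but monoculture C among them, with adjusted p of 0.0525 to 0.159 on those omissions. In MitoNegative the log2 fold change was -0.14 (edgeR, adjusted p = 0.0689), and Slc25a46 was called there without monoculture C, at -0.18 (edgeR, adjusted p = 0.0391). Exons of Slc25a46 overlap B930094E09Rik on the opposite strand over 7.06% of their length. Slc25a53 had 16.8, 14.4 and 14.3 CPM in MitoNegative against 19.2, 19.2 and 18.2 CPM in monoculture, 1.24-fold lower (edgeR, adjusted p = 0.031), while MitoPositive, at 20.2, 16.1 and 15.7 CPM, overlapped monoculture. That call was lost without MitoNegative C or D or monoculture B or C, at an adjusted p of 0.0749 to 0.125, and for Slc25a53 also with total counts as the scale, at 0.0543. Slc25a43 and Slc25a47 were too low for a narrow interval, and the fold of Slc25a43 in MitoPositive against monoculture had a 95% interval of 0.612 to 5.03.

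**Figure D4:**
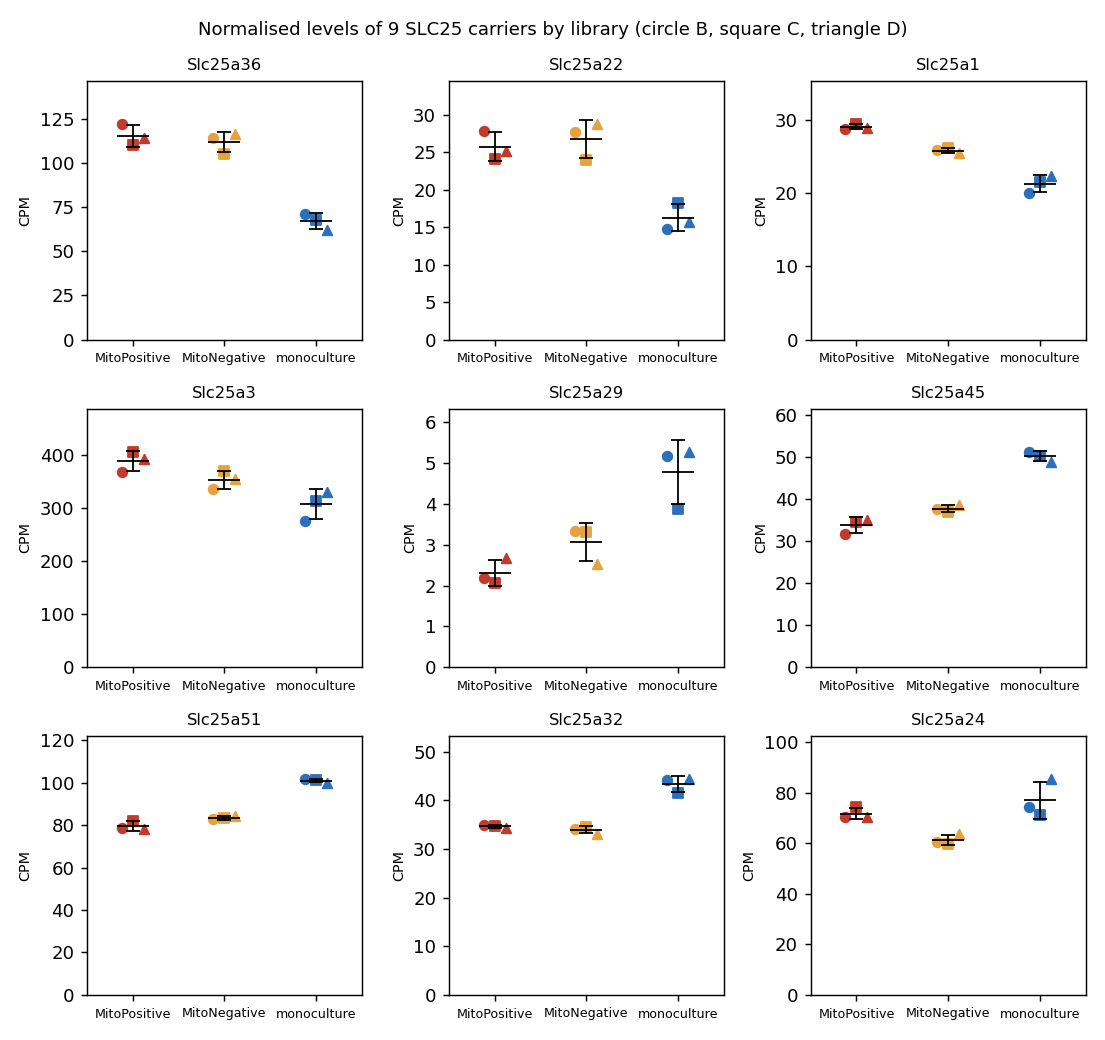
Normalised levels in CPM of 9 carriers by group, 1 point per library shaped by letter, with the mean and the SD of the 3 libraries as bars, each axis starting at 0. Slc25a36 and Slc25a22 stand higher in both co-cultured groups, Slc25a29, Slc25a45, Slc25a51 and Slc25a32 lower, and Slc25a24 is lowest in MitoNegative.

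Other transport proteins of the mitochondrion and enzymes that handle the carried substrates were counted in the same fits. Of 27 tested transport proteins outside the symbol rule, 2 rose and 9 fell in MitoPositive against monoculture, 40.7%. The list is not wholly outside the SLC25 family, since it holds Ucp2. Of all genes tested 42.2% were called, 22.3% higher and 19.9% lower. In MitoNegative 2 rose and 8 fell, 37.0%, beside 38.9% of all genes, 20.6% higher and 18.3% lower. Between MitoPositive and MitoNegative 0 were called, with 1 at an unadjusted p under 0.05, where 10.5% of all genes were. Against monoculture the shares called in either direction together are near those of all genes. The split by direction is not, since falls outnumbered rises here, and it was not tested. Among those that fell in MitoPositive were Sfxn3, Tspo, Ucp2, Mtch1, Mcur1, Sfxn2, Slc8b1 and Mpc2, with log2 fold changes of -0.71 to -0.20, and Sfxn1 was among those that rose, at 0.17 (edgeR, adjusted p = 0.0432). Those given with values below were among the called members with the largest absolute change in MitoPositive. Sfxn3, for a mitochondrial serine carrier of the sideroflexin family, had 32.7, 33.9 and 33.3 CPM in MitoPositive, 30.8, 30.9 and 32.4 CPM in MitoNegative and 53.4, 54.4 and 55.7 CPM in monoculture. Its log2 fold change was -0.71 in MitoPositive (edgeR, adjusted p = 1.11e-06) and -0.80 in MitoNegative (edgeR, adjusted p = 9.25e-07). Ucp2, the uncoupling protein of lymphocytes and an SLC25 protein by descent whose symbol lies outside the rule, had 311, 366 and 379 CPM in MitoPositive, 305, 340 and 341 CPM in MitoNegative and 428, 394 and 538 CPM in monoculture. All its co-cultured libraries were below monoculture, with log2 fold changes of -0.37 in MitoPositive (edgeR, adjusted p = 0.0224) and -0.46 in MitoNegative (edgeR, adjusted p = 0.00716). Tspo, for an outer membrane protein, had log2 fold changes of -0.57 in MitoPositive and -0.51 in MitoNegative (edgeR, adjusted p = 0.000569 and 0.00137).

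Of 34 tested enzymes 6 rose and 9 fell in MitoPositive against monoculture, 44.1%, and as many in MitoNegative, beside 42.2% and 38.9% of all genes tested. Between MitoPositive and MitoNegative 0 were called, with 1 at an unadjusted p under 0.05, where 10.5% of all genes were. Against monoculture the shares called in either direction together are near those of all genes. By direction all genes stood at 22.3% higher and 19.9% lower in MitoPositive, and at 20.6% and 18.3% in MitoNegative. Among those that fell in MitoPositive were Nadk2, Gclc, Cpt1a, Acly, Idh2, Mdh1, Alas1 and Glud1, with log2 fold changes of -0.53 to -0.25. The 4 called enzymes with the largest absolute change in MitoPositive, given next, were all rises. Mthfd2, of mitochondrial one-carbon metabolism, had 82.4, 98.6 and 74.6 CPM in MitoPositive, 79.2, 94.7 and 76.2 CPM in MitoNegative and 42.3, 50.4 and 46.4 CPM in monoculture, while the folate-linked carrier gene Slc25a32 stood lower. Its log2 fold change was 0.88 in MitoPositive (edgeR, adjusted p = 0.000127) and 0.85 in MitoNegative (edgeR, adjusted p = 0.000205). Of the enzymes of NAD synthesis, Nampt had log2 fold changes of 0.78 in MitoPositive and 1.01 in MitoNegative (edgeR, adjusted p = 0.00076 and 0.000189), and Nmnat3 of 0.79 and 0.66 (edgeR, adjusted p = 0.000105 and 0.000482), while Slc25a51, for the NAD carrier, fell. Gss, for glutathione synthetase, rose by 0.61 in MitoPositive and 0.46 in MitoNegative on the log2 scale (edgeR, adjusted p = 1.31e-05 and 0.000145), while neither glutathione carrier gene was called with all 9 libraries.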

How the data were processed

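Raw counts per gene, as deposited by the authors, were analysed for 9 libraries; per the submitters' processing notes bcl2fastq, cutadapt, STAR 2.7, featureCounts, DESeq2 and build GRCm38 were used, and the strand of counting was not given in the sources used here. Of 55520 entries 99 were spike-ins and were left out. Genes were kept by filterByExpr (minimum count 10, minimum total 15), which left 15711. Counts were scaled by TMM and fitted by group over all 9 libraries with edgeR 4.0.16 (R 4.3.3), robust quasi-likelihood, 6 residual degrees of freedom. P-values were adjusted by Benjamini-Hochberg over the 15711 genes, and a call is an adjusted p under 0.05. CPM were computed from the deposited counts, and exonic lengths came from the authors' annotation, whose 47 carrier spans equal GENCODE M21. Intervals are 95% intervals of the fitted fold change. Alternatives were DESeq2 size factors and test (1.42.0), total counts, no filter, a filter of 1 CPM in 3 libraries, limma voom (3.58.1), the compared groups alone, the letter as a block, and each library left out. Fits were tested on simulated data.

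Letters were not paired in the main fit and entered only in the block alternative, which was run for all 3 comparisons. Correlations of same-letter residuals above 0.1 were taken as a sign of pairing. The correlations were 0.402, 0.339 and 0.459 between MitoPositive and MitoNegative and 0.213, 0.153 and 0.111 between MitoNegative and monoculture. Between MitoPositive and monoculture they were 0.248, 0.0521 and 0.163, so not all lay above 0.1. Carriers named with full values were up to 10 rises and 10 falls in MitoPositive against monoculture with mean log2 CPM of at least 1, the 3 smallest p between MitoPositive and MitoNegative, and Slc25a1, Slc25a3, Slc25a4, Slc25a5, Slc25a11, Slc25a12, Slc25a13, Slc25a20, Slc25a37 and Slc25a51; Slc25a28 and Slc25a53 were added after their values were seen. The members, gene lists and motifs were chosen with earlier results of these data known. Values of 1 carrier and of 3 other genes are not reported here by name. From the other lists, up to 4 called members with the largest absolute change were taken.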

Additional observations from a re-analysis of the deposited data

How the results depend on the processing

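The 0 carriers called between MitoPositive and MitoNegative stayed at 0 in all 17 alternative settings. The count of all genes called there, 26, was 15 with DESeq2 size factors (10 higher), 14 with total counts as the scale (10 higher), 171 with no filter on low counts, 4 with the stricter filter, 418 with the DESeq2 test, 65 with the 2 compared groups alone, 367 with the replicate block and 1 to 120 with 1 library left out. The carriers called against monoculture numbered 12 to 20 in MitoPositive (17 as reported, 18 with the replicate block) and 9 to 17 in MitoNegative (13 as reported, 14 with the replicate block) over the omissions of 1 library. The block added 1 carrier call in each, that in MitoNegative being Slc25a3, and ended none. No called carrier changed sign.

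Signs changed in values near 0 that were not called, and those of carriers picked by the rule for full values are given here. Others changed sign too, such as Slc25a15 in 8 and Slc25a10 in 2 of 17 settings in MitoNegative against monoculture. Slc25a46 between MitoPositive and MitoNegative was 0.0021 with total counts and -0.0301 to 0.00261 with 1 library left out, and Slc25a35 was -0.174 to 0.0150. Slc25a5 in MitoNegative against monoculture was 0.0118 with total counts, 0.00939 with the stricter filter and -0.118 to 0.102 on omissions, and in MitoPositive -0.0653 to 0.156. On omissions Slc25a12 in MitoPositive was -0.124 to 0.0215, Slc25a13 in MitoNegative -0.00456 to 0.225 and Slc25a4 in MitoNegative -0.0144 to 0.150. The cause was not tested. Low counts limit what can be said of Slc25a43 and of the 8 carriers below the filter.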
